A study of Homo sapiens with 8 samples.

Results

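The genes described here are 10 human genes of sphingolipid and glycolipid handling, measured in cells depleted of a linker histone, a ubiquitin ligase scaffold or an elongation factor subunit. They are GLTP, DEGS1, UGCG, SPTLC1, SPTLC2, CERS2, SGMS1, SGPL1, ASAH1 and SPHK1, 10 of the 12300 genes tested on the arrays. The list was chosen by 2 measured values, the lower GLTP signal in H1.2sh and the lower DEGS1 signal in PAF1sh, so those values are given as a description with no test. The array carried 18 probes annotated to the 10 genes, of which 17 passed the filter on dim probes, and all 10 genes kept at least 1 probe. The cells were HEK 293T, an embryonic kidney line that carries the SV40 T antigen. They expressed a short hairpin RNA against the linker histone H1.2 (H1.2sh), against Cul4A (Cul4Ash), the scaffold of a ubiquitin ligase, or against PAF1 (PAF1sh), a subunit of the complex of that name that travels with RNA polymerase II, and cells with the hairpin NCsh were the control. Total RNA of each of the 4 groups was hybridised to 2 Illumina bead arrays, 8 in all. The labels name 1 hairpin per target and no rescue, and they do not tie the arrays of a group to different cultures, so the p-values rest on a spread that may be technical.

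Sphingolipids are built on a sphingoid base. Serine palmitoyltransferase, a dimer of SPTLC1 with SPTLC2 or SPTLC3, condenses serine with palmitoyl-CoA in the endoplasmic reticulum, ceramide synthases add a fatty acid, and the desaturase DEGS1 turns dihydroceramide into ceramide. Ceramide is then glucosylated by UGCG, the entry step to most glycosphingolipids, or made into sphingomyelin by SGMS1, and GLTP carries glycolipids between membranes through the cytosol. Breakdown runs through ceramidases such as ASAH1, which free sphingosine, the kinase SPHK1, which makes sphingosine-1-phosphate (S1P), and the lyase SGPL1, which removes S1P from the pathway for good.

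The 250 bases before the annotated start of GLTP, DEGS1 and SPHK1 are shown because these are the members with the largest decreases in H1.2sh and PAF1sh and the largest increase. They are RefSeq sequences of build GRCh38.p14, written 5′ to 3′ along the gene's strand. GLTP lies on the minus strand (chr12:109880542-109880791), DEGS1 on the plus strand (chr1:224182990-224183239) and SPHK1 on the plus strand (chr17:76382954-76383203), and the windows of DEGS1 and SPHK1 are those at the outermost of several listed starts. Capitals mark matches on either strand to GGGCGG (the GC box), TATAAA and CCAAT, and neighbouring GC boxes can overlap.
GLTP: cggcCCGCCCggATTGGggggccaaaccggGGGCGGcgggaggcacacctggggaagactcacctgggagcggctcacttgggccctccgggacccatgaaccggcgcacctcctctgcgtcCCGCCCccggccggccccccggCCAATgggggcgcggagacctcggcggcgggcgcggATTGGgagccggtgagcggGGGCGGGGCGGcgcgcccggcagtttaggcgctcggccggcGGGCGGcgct
DEGS1: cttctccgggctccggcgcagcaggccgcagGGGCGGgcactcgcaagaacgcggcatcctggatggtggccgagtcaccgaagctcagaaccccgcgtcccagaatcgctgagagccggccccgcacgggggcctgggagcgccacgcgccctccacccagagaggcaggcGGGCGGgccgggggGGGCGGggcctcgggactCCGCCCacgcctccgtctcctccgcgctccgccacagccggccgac
SPHK1: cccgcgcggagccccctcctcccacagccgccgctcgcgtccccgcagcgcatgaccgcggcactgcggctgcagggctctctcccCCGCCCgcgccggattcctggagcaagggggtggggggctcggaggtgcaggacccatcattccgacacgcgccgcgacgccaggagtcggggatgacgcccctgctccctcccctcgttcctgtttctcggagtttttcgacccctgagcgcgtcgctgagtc
The GLTP window held 6 GC boxes and 3 CCAAT matches, the DEGS1 window 4 GC boxes and no CCAAT match, and the SPHK1 window 1 GC box. TATAAA was found in none of the 3 windows. RefSeq windows of 8 of the 10 members were used, with none for CERS2 or ASAH1, so the counts do not cover the whole list. Of these 8 members, 7 had a window at the outermost start of the gene. All 7 of those windows held a GC box, against 42.6% of 35116 windows of the same length, 0 held TATAAA, against 10.7%, and 2 held CCAAT (GLTP and SPTLC2), against 32.0%. The CpG count of these 7 windows was 16 to 39, against a median of 11 in all windows. The 35116 windows were not limited to outermost starts, to genes detected here or by chromosome. The sets are therefore unlike, and no trait of the members was tested.

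Each targeted gene was lowest where the labels name it. H1-2 changed by -1.11 ± 0.09 on the log2 scale in H1.2sh, CUL4A by -1.51 ± 0.08 in Cul4Ash and PAF1 by -2.58 ± 0.08 in PAF1sh (SE). The array medians were 82.8 to 88.7 intensity units, and normalised values of arrays of 1 group correlated across genes at 0.996 (Pearson). Of 6 genes reported for the 293 line, 5 were detected on all 7 arrays with detection p-values (NEFL, NEFM, INA, STMN2 and CKB) and PAX2 on 0. The endothelial genes PECAM1, VWF, CDH5 and KDR and the leukocyte genes PTPRC and CD3E were detected on 0. The leukocyte genes CD14 and CD68 were detected on all 7 arrays. Of 5 fibroblast genes COL1A1 was detected on all 7, COL3A1 and DCN on 3, and COL1A2 and PDGFRB on 0. Of 4 hepatocyte genes ALB was detected on all 7, APOA1 on 4, TTR on 3 and SERPINA1 on 1. Of the kidney genes AQP2 was detected on 3 arrays and SLC12A1 and NPHS1 on 0. The part of other cells or of cross-hybridisation in these signals was not tested. In bulk RNA, fewer cells that express a gene and less RNA per cell cannot be told apart. Probes with a detection p-value of at least 0.5 on every such array still had a median intensity of 62.7, so a normalised value near that level holds little signal above background.

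GLTP was lower in all 3 depletions than in NCsh, as was DEGS1, and SPTLC1 by its brightest probe was lower in H1.2sh and Cul4Ash, where SPHK1 was higher. CERS2 was lower, and UGCG and SGPL1 were higher, in PAF1sh. Leaving out GLTP in H1.2sh and DEGS1 in PAF1sh, whose values led to the list, 1 of 9 members rose and 2 fell in H1.2sh, against 7.28% of all genes that rose and 8.15% that fell. In Cul4Ash 1 of 10 rose and 3 fell, against 11% and 9.6% of all genes. In PAF1sh 2 of 9 rose and 2 fell, against 19% and 19.9%. These counts still hold GLTP and DEGS1 in the other depletions, read against the NCsh arrays that entered the choice, and nothing is drawn from them about the list. Over the 8 members other than GLTP and DEGS1, 1 rose and 1 fell in H1.2sh, 1 rose and 1 fell in Cul4Ash, and 2 rose and 1 fell in PAF1sh. The median log2 change of the 9, 10 and 9 members counted first was 0.12 for H1.2sh, -0.04 for Cul4Ash and -0.06 for PAF1sh. Over the 8 members without GLTP and DEGS1 it was 0.12, 0.01 and -0.02 in that order. The medians over all genes were -0.01, 0.00 and 0.00. A gene is said to rise or fall where its adjusted p was under 0.05 over the 12300 genes, in limma with 2 arrays per group. Values are intensities after quantile normalisation, in arbitrary units of 1 probe per gene, and they cannot be set between genes. The 3 comparisons share the NCsh arrays. How many of all genes had groups that did not overlap was not counted, so a lack of overlap is given as a description only. Without 1 array the members called were 2 in every case in H1.2sh and, without Cul4Ash replicate 1, 2 in Cul4Ash. The calls of GLTP, SPTLC1, CERS2, UGCG and SGPL1 against NCsh, and of SPHK1 in H1.2sh, held without any 1 array, and those of DEGS1 and of SPHK1 in Cul4Ash did not. With neqc on 5 scanner arrays, limma called 0 members in H1.2sh and in Cul4Ash (3 and 5 at an unadjusted p under 0.05) and 4 in PAF1sh. In that fit 0 of the 12300 genes passed in H1.2sh and in Cul4Ash (2616 and 3158 at an unadjusted p under 0.05), so a call lost there is not particular to the gene.

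**Figure D1:**
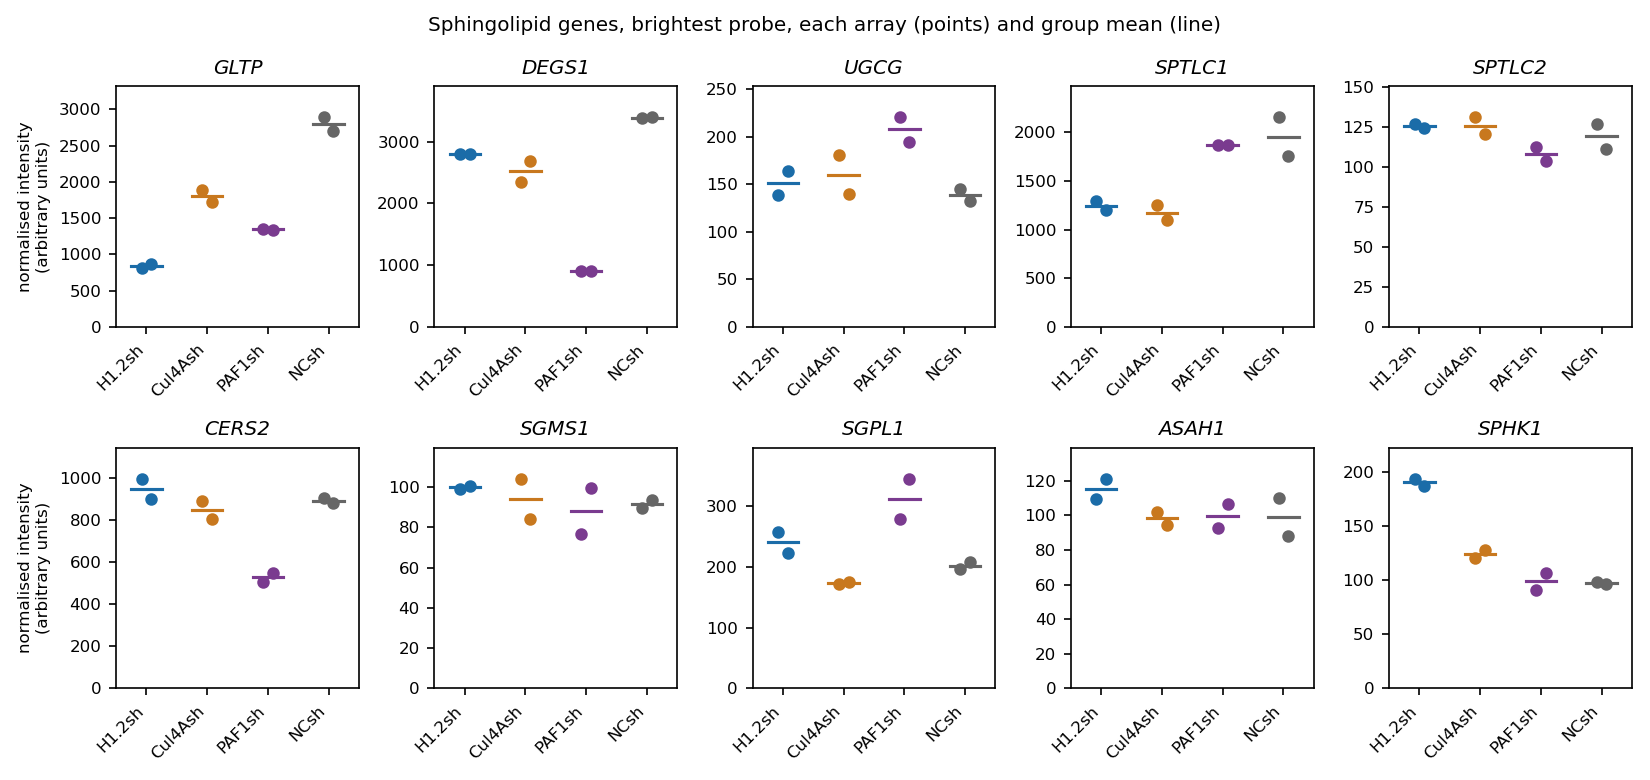
Normalised intensity (arbitrary units, axes from 0) of the brightest probe of each of the 10 genes on each array (points) with the group mean (line), for H1.2sh, Cul4Ash, PAF1sh and NCsh. GLTP was lowest in H1.2sh, at 809 and 864, DEGS1 and CERS2 were lowest in PAF1sh, and SPHK1 was highest in H1.2sh, at 194 and 188.

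**Figure D2:**
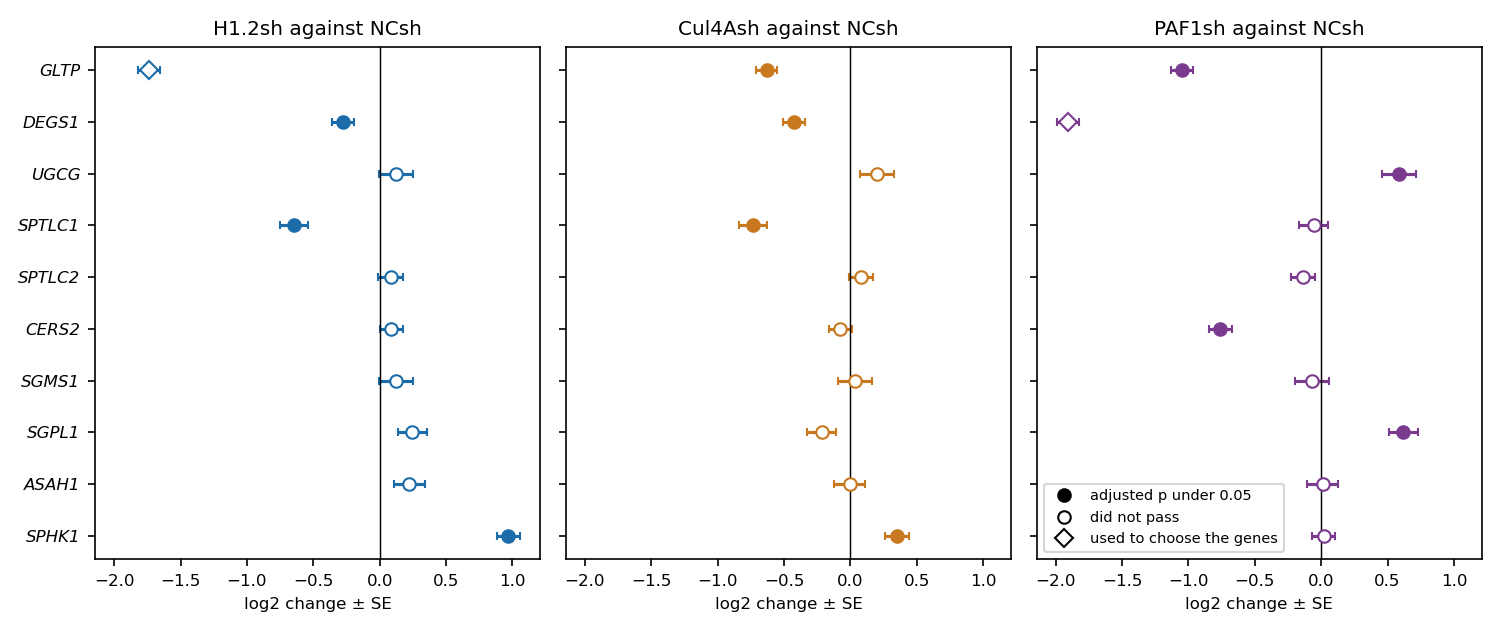
Log2 change against NCsh with its standard error for the 10 genes in H1.2sh, Cul4Ash and PAF1sh. Filled circles passed an adjusted p of 0.05, open circles did not, and diamonds mark the values by which the genes were chosen, GLTP in H1.2sh (-1.74) and DEGS1 in PAF1sh (-1.91).

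GLTP encodes a soluble protein that binds and moves glycosphingolipids such as glucosylceramide. Its single probe gave 809 and 864 in H1.2sh, 1886 and 1719 in Cul4Ash, 1353 and 1341 in PAF1sh, and 2888 and 2696 in NCsh. No 2 groups overlapped, and the order was H1.2sh, PAF1sh, Cul4Ash and NCsh from low to high. In H1.2sh the signal was 30.0% of that in NCsh (log2 change -1.74 ± 0.08), the value by which the gene was chosen. It fell in PAF1sh by 1.05 ± 0.08 (2.07-fold lower, adjusted p = 9.06e-06) and in Cul4Ash by 0.63 ± 0.08 (1.55-fold lower, adjusted p = 0.000554), both set against the NCsh arrays that also entered that choice. Cul4Ash was above PAF1sh by 0.42 ± 0.08 (adjusted p = 0.00228), a difference that does not hold the NCsh mean. Its SE and p-value still draw on the spread of all 8 arrays. RefSeq lists a pseudogene, GLTPP1, and whether the probe also reads it was not tested. CPTP, a close relative of GLTP that carries ceramide-1-phosphate, did not pass in any depletion, with 0.05 ± 0.11 for H1.2sh, -0.13 ± 0.11 for Cul4Ash and -0.01 ± 0.11 for PAF1sh.

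DEGS1, the enzyme of the last step to ceramide, gave 2796 and 2793 in H1.2sh, 2350 and 2691 in Cul4Ash, 897 and 904 in PAF1sh, and 3374 and 3391 in NCsh by its brighter probe. The PAF1sh arrays stood far below the rest, at 26.6% of NCsh (log2 change -1.91 ± 0.08), which is the value by which the gene was chosen. A second probe gave 432 and 353 in PAF1sh and 1478 and 1537 in NCsh, a change of -1.95 ± 0.10. In Cul4Ash DEGS1 fell by 0.43 ± 0.08 (adjusted p = 0.00544), and in H1.2sh by 0.28 ± 0.08 (adjusted p = 0.0487), both against the NCsh arrays used in that choice. Both groups lay below both NCsh arrays, and H1.2sh and Cul4Ash did not differ past the threshold (0.15 ± 0.08, adjusted p = 0.222). The H1.2sh call is marginal: without any 1 of the arrays compared its adjusted p was 0.139 to 0.178, with a log2 change of -0.28 to -0.27, and the Cul4Ash call was lost without Cul4Ash replicate 1 (-0.33, adjusted p = 0.051). With each kept probe in the fit, the brighter probe had an adjusted p of 0.081 in H1.2sh and 0.0102 in Cul4Ash, and the second probe passed in neither (-0.17 ± 0.10, adjusted p = 0.35, and -0.30 ± 0.10, adjusted p = 0.086).

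CERS2, the ceramide synthase that adds very long fatty acids, gave 998 and 904 in H1.2sh, 891 and 807 in Cul4Ash, 509 and 548 in PAF1sh, and 907 and 882 in NCsh. Both PAF1sh arrays were below every other array, and CERS2 fell there by 0.76 ± 0.09 (1.69-fold lower, adjusted p = 9.16e-05). A second CERS2 probe, at 449 and 456 in PAF1sh and 795 and 744 in NCsh, fell by 0.77 ± 0.09 (adjusted p = 0.000147 over all probes). CERS2 was also above PAF1sh in H1.2sh by 0.85 ± 0.09 (adjusted p = 4.41e-05) and in Cul4Ash by 0.68 ± 0.09 (adjusted p = 0.000164). Against NCsh the change was 0.09 ± 0.09 in H1.2sh and -0.08 ± 0.09 in Cul4Ash, and neither passed.

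SPTLC1, a subunit of serine palmitoyltransferase, had 5 probes that did not move together. The brightest, ILMN_2249473 (annotated to NM_178324), gave 1289 and 1200 in H1.2sh, 1250 and 1096 in Cul4Ash, 1871 and 1868 in PAF1sh, and 2151 and 1759 in NCsh. By this probe SPTLC1 fell in H1.2sh by 0.65 ± 0.11 (adjusted p = 0.00329) and in Cul4Ash by 0.73 ± 0.11 (adjusted p = 0.00116), while PAF1sh lay within the NCsh range (-0.06 ± 0.11). The next brightest, ILMN_1813491 (annotated to NM_006415), gave 740 and 764 in H1.2sh, 1050 and 1060 in Cul4Ash, 612 and 622 in PAF1sh, and 975 and 1068 in NCsh. Here PAF1sh was lowest and Cul4Ash overlapped NCsh.

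In the fit over all 22131 kept probes, ILMN_1813491 fell in PAF1sh by 0.73 ± 0.08 (adjusted p = 0.000128) and in H1.2sh by 0.44 ± 0.08 (adjusted p = 0.0099), and did not pass in Cul4Ash (0.05 ± 0.08). In that fit, over all kept probes, 14.6% fell in PAF1sh, 4.44% in H1.2sh and 6.42% in Cul4Ash. The brightest probe fell in H1.2sh (adjusted p = 0.00607) and in Cul4Ash (adjusted p = 0.00196). A dimmer probe of NM_006415, ILMN_2274420, fell in PAF1sh by 0.33 ± 0.10 (adjusted p = 0.0349) and was at -0.36 ± 0.10 in H1.2sh (adjusted p = 0.0596) and 0.02 ± 0.10 in Cul4Ash. The other probes of NM_178324, ILMN_1665094 and ILMN_1799853, passed in no depletion, with changes of -0.40 to -0.03. Cul4Ash and PAF1sh, compared directly, differed in opposite directions at the 2 brightest probes: Cul4Ash was lower by -0.68 ± 0.11 at ILMN_2249473 (adjusted p = 0.00102, with 15.6% of all probes lower) and higher by 0.77 ± 0.08 at ILMN_1813491 (adjusted p = 8.17e-05, with 15.8% of all probes higher). The log2 ratio of ILMN_2249473 to ILMN_1813491 on the same array was 0.80 and 0.65 in H1.2sh, 0.25 and 0.05 in Cul4Ash, 1.61 and 1.59 in PAF1sh, and 1.14 and 0.72 in NCsh, so the ratio was lowest in Cul4Ash and highest in PAF1sh. RefSeq lists 5 pseudogenes of SPTLC1, and whether the probes read them was not tested, nor was the difference between probes.

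**Figure D3:**
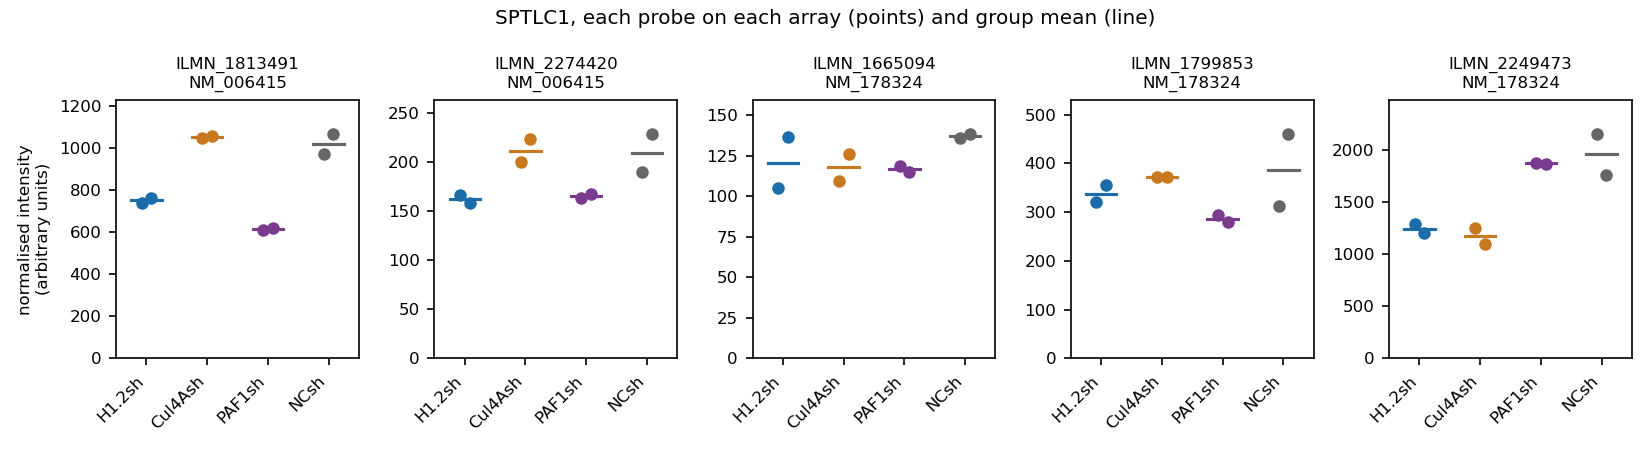
Normalised intensity (arbitrary units, axes from 0) of the 5 SPTLC1 probes on each array (points) with the group mean (line), in panels ordered by annotated accession. ILMN_2249473 was low in H1.2sh and Cul4Ash, and ILMN_1813491 was low in PAF1sh and H1.2sh.

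SPTLC2, the catalytic partner of SPTLC1, gave 127 and 125 in H1.2sh, 131 and 121 in Cul4Ash, 112 and 104 in PAF1sh, and 127 and 111 in NCsh. All 3 groups overlapped NCsh, and the changes of -0.14 to 0.08 did not pass.

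UGCG, which glucosylates ceramide, gave 138 and 164 in H1.2sh, 180 and 140 in Cul4Ash, 220 and 195 in PAF1sh, and 144 and 132 in NCsh. It rose in PAF1sh by 0.58 ± 0.13 (adjusted p = 0.00483), and both PAF1sh arrays were above every other array. H1.2sh was below PAF1sh by -0.46 ± 0.13 (adjusted p = 0.0162) and Cul4Ash by -0.38 ± 0.13 (adjusted p = 0.0363). Those direct differences rest on single arrays: for H1.2sh the adjusted p was 0.121 without H1.2sh replicate 1 (-0.34) and 0.116 without PAF1sh replicate 1 (-0.37), and for Cul4Ash it was 0.27 without Cul4Ash replicate 2 (-0.20), 0.202 without PAF1sh replicate 1 (-0.30) and 0.0519 without PAF1sh replicate 2 (-0.47). With limma's neqc on the 5 scanner arrays whose names and values go together, the rise in PAF1sh was 0.90 ± 0.21 (adjusted p = 0.061).

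SGMS1, a sphingomyelin synthase of the Golgi, was close to background, with its probe detected on 4 of 7 arrays and not on the PAF1sh array (replicate 1) that could be read under its name (detection value 0.566). It gave 98.9 and 101 in H1.2sh, 104 and 84.3 in Cul4Ash, 76.9 and 99.5 in PAF1sh, and 89.7 and 93.5 in NCsh, and passed in no comparison. ASAH1, the lysosomal acid ceramidase, gave 110 and 121 in H1.2sh, 102 and 94.8 in Cul4Ash, 92.5 and 107 in PAF1sh, and 110 and 88.2 in NCsh. Its groups overlapped NCsh, its changes of -0.0046 to 0.22 did not pass, and its second probe, detected on 2 of 7 arrays, did not pass either.

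SPHK1, a kinase that makes S1P, gave 194 and 188 in H1.2sh, 120 and 128 in Cul4Ash, 91.2 and 107 in PAF1sh, and 98.1 and 96.6 in NCsh. It rose in H1.2sh by 0.97 ± 0.09 (1.96-fold, adjusted p = 8.44e-05) and in Cul4Ash by 0.35 ± 0.09 (1.27-fold, adjusted p = 0.0203), and PAF1sh overlapped NCsh (0.02 ± 0.09). H1.2sh was above Cul4Ash by 0.62 ± 0.09 (adjusted p = 0.00094) and above PAF1sh by 0.95 ± 0.09 (adjusted p = 2.53e-05), and Cul4Ash was above PAF1sh by 0.33 ± 0.09 (adjusted p = 0.0128). The NCsh values lie near the background level, and with neqc on 5 arrays the change in H1.2sh was 1.78 ± 0.12 (adjusted p = 0.0714). The Cul4Ash call did not hold without any 1 of the 4 arrays compared (log2 change 0.30 to 0.40, adjusted p of 0.0762 without NCsh replicate 1, 0.0821 without NCsh replicate 2, 0.0521 without Cul4Ash replicate 1 and 0.107 without Cul4Ash replicate 2), and its difference from PAF1sh did not pass without PAF1sh replicate 1 (0.22, adjusted p = 0.0968) or Cul4Ash replicate 2 (0.28, adjusted p = 0.0801). A second SPHK1 probe was detected on 0 of 7 arrays.

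SGPL1, the S1P lyase, gave 257 and 223 in H1.2sh, 172 and 175 in Cul4Ash, 279 and 344 in PAF1sh, and 196 and 208 in NCsh. It rose in PAF1sh by 0.62 ± 0.11 (1.54-fold, adjusted p = 0.00131), and Cul4Ash, the lowest group, was below PAF1sh by -0.84 ± 0.11 (adjusted p = 0.000193). Against NCsh the change was 0.25 ± 0.11 in H1.2sh (adjusted p = 0.162) and -0.22 ± 0.11 in Cul4Ash (adjusted p = 0.188), and neither passed. H1.2sh was above Cul4Ash by 0.46 ± 0.11 (adjusted p = 0.0135), which did not pass without H1.2sh replicate 1 (0.36, adjusted p = 0.102), Cul4Ash replicate 1 (0.45, adjusted p = 0.066) or Cul4Ash replicate 2 (0.48, adjusted p = 0.0517). It was below PAF1sh by -0.37 ± 0.11 (adjusted p = 0.0201), which did not pass without H1.2sh replicate 2 (-0.27, adjusted p = 0.147) or PAF1sh replicate 2 (-0.22, adjusted p = 0.154).

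Between depletions, 2 of 9 members were higher and 0 lower in H1.2sh than in Cul4Ash, against 10.2% and 12.4% of all genes. In H1.2sh against PAF1sh 2 of 8 were higher and 3 lower, against 19.8% and 20.4%, and in Cul4Ash against PAF1sh 3 of 9 were higher and 3 lower, against 21.2% and 19.8%. Without H1.2sh replicate 1, Cul4Ash replicate 1 or Cul4Ash replicate 2 the first count was 1. GLTP and DEGS1 are left out of these counts wherever the group that led to their choice takes part.

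The rest of the pathway was a list of 61 genes, of which 38 had a kept probe. Of these 38, 4 rose and 1 fell in H1.2sh, 3 rose and 5 fell in Cul4Ash, and 10 rose and 6 fell in PAF1sh, and their median log2 changes were 0.02, -0.04 and 0.01 in that order. Read against the shares of all genes given above, these shares were 10.5% and 2.63% in H1.2sh, 7.89% and 13.2% in Cul4Ash, and 26.3% and 15.8% in PAF1sh. The balance in H1.2sh was not the same in fits with other scalings: with median scaling, and likewise without normalization, 1 of the 38 rose and 2 fell. In those 2 fits the genes shared 1 SE (0.1318 and 0.1385), unlike in the main fit. The test therefore differed as well as the scaling. Without 1 array the 5 calls in H1.2sh became 1 (without either H1.2sh array), 2 (without NCsh replicate 1) or 4, and the 8 in Cul4Ash became 5 without either Cul4Ash array. DEGS2, the relative of DEGS1, had 1 annotated probe that did not pass the filter, and SPTLC3 and SPHK2, relatives of SPTLC2 and SPHK1, were not analysed here.

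Among the genes of ceramide synthesis, CERS5, a ceramide synthase that uses palmitoyl-CoA, rose in all 3 depletions. It gave 668 and 566 in H1.2sh, 519 and 494 in Cul4Ash, 440 and 436 in PAF1sh, and 319 and 327 in NCsh, with no overlap between any groups. The changes were 0.93 ± 0.09 in H1.2sh (adjusted p = 0.000107), 0.65 ± 0.09 in Cul4Ash (adjusted p = 0.000846) and 0.44 ± 0.09 in PAF1sh (adjusted p = 0.00314), and with neqc on 5 arrays they were 1.21, 0.82 and 0.52 (adjusted p of 0.0866, 0.0882 and 0.058). SPTSSA, a small activating subunit of serine palmitoyltransferase, also rose in all 3, by 0.40 ± 0.11, 0.55 ± 0.11 and 0.45 ± 0.11. Its H1.2sh call (adjusted p = 0.0341) did not pass with median scaling (0.28, adjusted p = 0.155), nor without NCsh replicate 1 (0.23, adjusted p = 0.207), H1.2sh replicate 1 (0.36, adjusted p = 0.166) or H1.2sh replicate 2 (0.43, adjusted p = 0.0917), and its PAF1sh call (adjusted p = 0.00735) did not pass without NCsh replicate 1 (0.29, adjusted p = 0.0589) or PAF1sh replicate 1 (0.41, adjusted p = 0.0529). ELOVL1, an elongase of very long fatty acids, rose in H1.2sh (0.37 ± 0.10, adjusted p = 0.0284), a call lost without NCsh replicate 2 (0.23, adjusted p = 0.168), H1.2sh replicate 1 (0.40, adjusted p = 0.0968) or H1.2sh replicate 2 (0.34, adjusted p = 0.13). CERS1, whose transcript also carries the GDF1 reading frame, fell in PAF1sh (-0.65 ± 0.11, adjusted p = 0.000778) and in Cul4Ash (-0.42 ± 0.11, adjusted p = 0.0188). The Cul4Ash call of CERS1 was lost without NCsh replicate 1 (-0.45, adjusted p = 0.0633), NCsh replicate 2 (-0.39, adjusted p = 0.0828), Cul4Ash replicate 1 (-0.39, adjusted p = 0.0992) or Cul4Ash replicate 2 (-0.45, adjusted p = 0.0556).

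CERT1, the carrier of ceramide from the endoplasmic reticulum to the Golgi, gave 110 and 119 in Cul4Ash and 243 and 188 in NCsh, and fell by 0.90 ± 0.16 (adjusted p = 0.00371). A second CERT1 probe did not pass in Cul4Ash (-0.14 ± 0.11, adjusted p = 0.464 over all probes), and with neqc the change of the first was -1.57 (adjusted p = 0.0969). GLA, a lysosomal galactosidase of glycolipid breakdown, rose in Cul4Ash (0.54 ± 0.07, adjusted p = 0.000583). ALDH3A2, which oxidises the fatty aldehyde left by SGPL1, fell there by its brightest probe (-0.35 ± 0.08, adjusted p = 0.0147). In the fit over all probes a further ALDH3A2 probe also fell in Cul4Ash (-0.43 ± 0.08, adjusted p = 0.00795), and another did not pass (-0.06 ± 0.08, adjusted p = 0.654). The ALDH3A2 call was lost without NCsh replicate 2 (-0.29, adjusted p = 0.0891) or Cul4Ash replicate 2 (-0.30, adjusted p = 0.0852).

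Of 9 tested genes of glycosphingolipid breakdown, 3 rose and 2 fell in PAF1sh, against 19% and 19.9% of all genes. The sialidase gene NEU1 gave 1001 and 1146 in PAF1sh and 546 and 582 in NCsh, a rise of 0.93 ± 0.09 (1.90-fold, adjusted p = 2.5e-05). The sulfatase gene ARSA rose by 0.64 ± 0.10 (adjusted p = 0.000584) and PSAP, the precursor of the saposins that activate lysosomal hydrolases, by 0.52 ± 0.08 (adjusted p = 0.000675). Second probes of ARSA (0.34 ± 0.09, adjusted p = 0.0194) and PSAP (0.53 ± 0.08, adjusted p = 0.000717) also rose in the fit over all probes, in which 14.5% rose in PAF1sh. HEXA, a hexosaminidase subunit, fell in PAF1sh (-0.41 ± 0.10, adjusted p = 0.00743), with a signal not above background on the PAF1sh array that could be read under its name (detection value 0.0636), and the call was lost without NCsh replicate 2 (-0.31, adjusted p = 0.0635) or PAF1sh replicate 2 (-0.32, adjusted p = 0.0636). GM2A, the activator protein for that enzyme, fell in H1.2sh (-0.30 ± 0.08, adjusted p = 0.03), and was lost without NCsh replicate 1 (adjusted p = 0.07), NCsh replicate 2 (adjusted p = 0.143), H1.2sh replicate 1 (adjusted p = 0.17) or H1.2sh replicate 2 (adjusted p = 0.081), with changes of -0.35 to -0.26. B4GALNT1, a synthase of complex gangliosides, gave 93.7 and 87.5 in PAF1sh and 122 and 130 in NCsh, and fell by 0.48 ± 0.08 (adjusted p = 0.00102); in H1.2sh it gave 162 and 163 and rose (0.37 ± 0.08, adjusted p = 0.0138), and the direct difference of H1.2sh from PAF1sh was 0.84 ± 0.08 (adjusted p = 2.91e-05). The H1.2sh rise was singled out after its value was seen, and it did not pass with median scaling (adjusted p = 0.143) or without NCsh replicate 1 (0.33, adjusted p = 0.0878), H1.2sh replicate 1 (0.37, adjusted p = 0.0797) or H1.2sh replicate 2 (0.37, adjusted p = 0.0708).

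**Figure D4:**
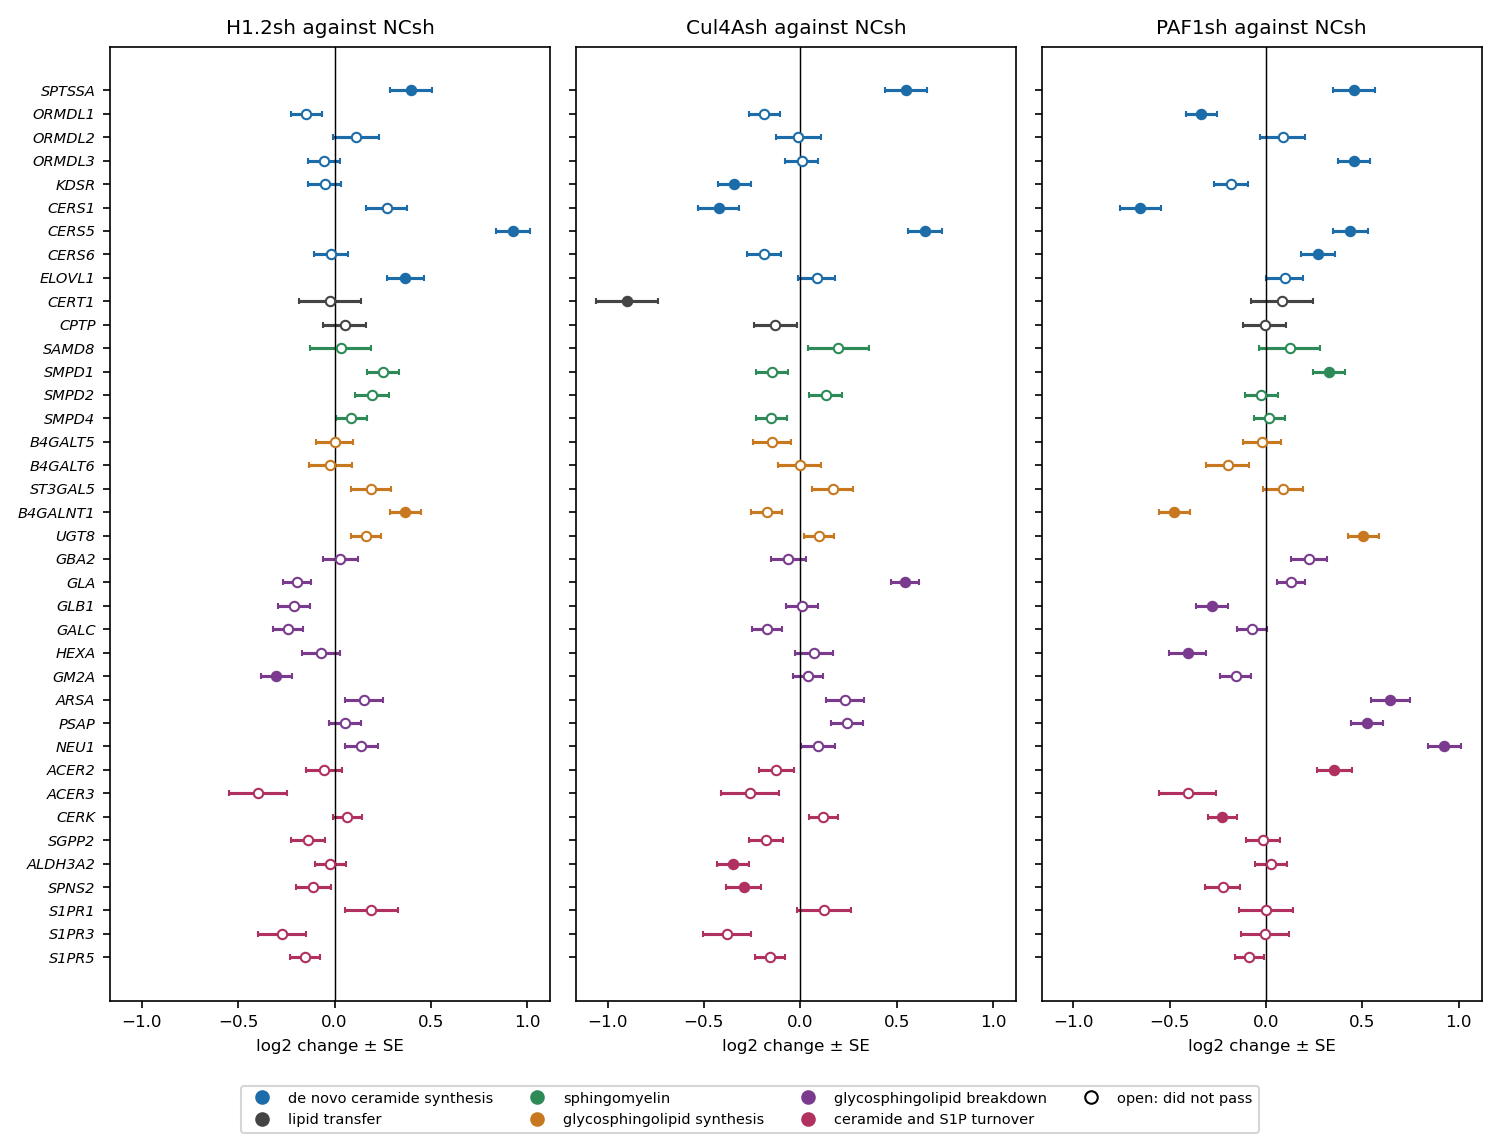
Log2 change against NCsh with its standard error for the 38 other sphingolipid genes tested, coloured by role, in H1.2sh, Cul4Ash and PAF1sh. Filled points passed an adjusted p of 0.05. CERS5 and SPTSSA are above 0 in all 3 panels, CERT1 is lowest in Cul4Ash, and NEU1, ARSA and PSAP lie to the right in PAF1sh.

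By Pearson's r over the normalised log2 values of the 8 arrays, which form 4 groups of 2, the genes most like GLTP among all tested were CMTM4 (r = 0.981), ERLIN1 (r = 0.980) and INA (r = 0.975). INA gave 617 and 636 in H1.2sh, 1109 and 1052 in Cul4Ash, 725 and 810 in PAF1sh, and 1348 and 1419 in NCsh, the group order of GLTP. CMTM4 gave 867 and 845 in H1.2sh and 1185 and 1116 in NCsh, and ERLIN1 133 and 136 against 185 and 190. Pearson's r does not weigh the size of a change, which was smaller in these genes than in GLTP. Those most like DEGS1 were AP1S2 (r = 0.996), RSRC1 (r = 0.995) and UBE2V2 (r = 0.994). UBE2V2 gave 1390 and 1360 in H1.2sh, 1323 and 1416 in Cul4Ash, 653 and 601 in PAF1sh, and 1601 and 1760 in NCsh. AP1S2 gave 741 and 697 in PAF1sh and 1353 and 1316 in NCsh, and RSRC1 162 and 155 against 394 and 433. APOC1 (r = 0.981), NRBF2 (r = 0.981) and COQ8B (r = 0.975) were most like the brightest SPTLC1 probe, and NOP16 (r = 0.980), CDC42EP1 (r = 0.979) and TPM2 (r = 0.979) were most like SPHK1. These likenesses are a description over a few arrays that share their groups.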

How the data were processed

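The values used are the linear intensity of each probe on the 8 arrays in the authors' deposited series matrix. On probes above 400 units, 7 of its columns differ from a signal column of the authors' deposited scanner table, which also gives a detection p-value, by an amount with an SD of 4.92 to 5.12; how the authors adjusted for background is not given in the sources used here. Per the file headers, 2 scanner columns of 16 are empty. The scanner signals named H1.2sh replicate 2 matched matrix Cul4Ash replicate 2, and those named Cul4Ash replicate 2 matched matrix PAF1sh replicate 2. Only 5 scanner arrays were therefore tied to samples, and groups came from the matrix accessions. No scanner column matched matrix H1.2sh replicate 2, so it has no detection p-values. In replicate 2 of the matrix, H1-2 was lowest in H1.2sh, CUL4A in Cul4Ash and PAF1 in PAF1sh.

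Values were log2 transformed and quantile normalised. Probes with a detection p-value under 0.05 on at least 2 of 7 scanner arrays were kept (22131), each gene was read at its brightest kept probe (12300 genes), and 4 group means were fitted with limma 3.58.1 (R 4.3.3), Benjamini-Hochberg adjusted over all genes, with 4 residual and 6.19 prior degrees of freedom. Each probe's intensity is in arbitrary units, and the number of arrays limits the precision. Gene names are GEO's platform annotation (30109 probes with 1 gene, 8 with several, 17103 with none), checked by Entrez ID in RefSeq GRCh38.p14 (30070 found, 0 symbols changed). The fit was also run on values simulated with independent normal noise at each gene's fitted spread. Such values hold no array effects, so that run checks the code and not the design. Members, lists and tests were chosen with earlier results of these data known. Named were all members, the 3 largest rises and falls per depletion among the other sphingolipid genes, the relatives CPTP, DEGS2, SPTLC3 and SPHK2, and the 3 genes most alike in pattern. Same-numbered replicates did not deviate together (r = -0.13 to 0.11 between groups), so the numbers were not treated as pairs. Alternatives were other scalings, filters and background correction, every probe in the fit, 2 groups only, a replicate block and leaving out each array; the 5 scanner-named arrays alone were added after seeing the data.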

Additional observations from a re-analysis of the deposited data

How the results depend on the processing

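Among the member genes, 482 of the values under an alternative setting kept their direction and side of the threshold, 52 kept the direction and lost the call, 1 gained it, 2 that carry no test moved and 19 turned sign, all 19 of them values that did not pass. The 482 include 11 values of GLTP in H1.2sh and 13 of DEGS1 in PAF1sh that carry no test. Other filters, every kept probe, 2 groups only and the replicate block reuse the same normalised values. In those settings the direction at the same probe could not change, for members or other genes. GLTP in H1.2sh was -1.84 without normalization and -1.85 with neqc. SGMS1 gained a call in PAF1sh with neqc (-0.67, adjusted p = 0.0496), where UGCG lost it. Scaling moved the median of all genes by less than 0.1 on the log2 scale, to -0.066, -0.068 and -0.030 with median scaling and -0.090, -0.013 and -0.021 without normalization in H1.2sh, Cul4Ash and PAF1sh, and the share of higher genes among those called, 47.2%, 53.5% and 48.8%, became 19.3%, 25.1% and 39.3%, and 14.2%, 41.8% and 40.6%. In those 2 fits the SE did not differ between genes (0.1318 and 0.1385), so the test behind these shares differed as well as the scaling. Among the other sphingolipid genes named or called, 289 values were on the same side, 115 lost the call and 8 turned sign.

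Counts of calls changed as follows. For H1.2sh, the 5 other sphingolipid genes called were 3 with median scaling, without normalization, with every kept probe and with the 2 groups only, 2 with no filter on dim probes and 1 on the matrix values of 5 arrays, and the 1899 genes in all were 1035 with no filter and 690 on those 5 arrays. For Cul4Ash, the 8 other genes called were 4 on those 5 arrays, and the 2539 genes in all were 1365 without normalization, 1581 with no filter and 1295 on those 5 arrays. For PAF1sh the 16 other genes called were 10 on those 5 arrays. The 2 members called in H1.2sh against Cul4Ash were 1 without normalization. With neqc on 5 arrays, limma called 0 members, 0 other genes and 0 genes in all in H1.2sh and in Cul4Ash (at an unadjusted p under 0.05: 3, 8 and 2616 in H1.2sh, 5, 9 and 3158 in Cul4Ash), 5 other genes and 2039 genes in all in PAF1sh against the 4784 of all 8 arrays, and 0, 2 and 3 members in H1.2sh against Cul4Ash (2 at an unadjusted p under 0.05), H1.2sh against PAF1sh and Cul4Ash against PAF1sh. The neqc fits hold fewer arrays than the main fit. The fits on the matrix values of the same 5 arrays hold as few, and their counts for H1.2sh and Cul4Ash given above are not 0. Why these fits and the neqc fits differ was not tested. Where a group is left with 1 array in any fit, that array is assumed to vary like the groups that hold 2. In the fits of 5 arrays only NCsh held 2, so the residual spread came from that pair alone.

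Without 1 array of the comparison, members called were 2 in every case in H1.2sh, 2 to 3 in Cul4Ash, 4 in every case in PAF1sh, 1 to 2 in H1.2sh against Cul4Ash, 4 in every case in H1.2sh against PAF1sh and 4 to 6 in Cul4Ash against PAF1sh. Other genes called were 1 to 4, 5 to 6 and 11 to 14, and genes in all 733 to 1105, 1314 to 1686 and 3765 to 3892, in H1.2sh, Cul4Ash and PAF1sh. With the replicate block, 2 members were called in H1.2sh (DEGS1 was lost, adjusted p = 0.0609), 4 in Cul4Ash and 4 in PAF1sh, and genes in all were 1684, 2319 and 4646; no other member changed its call.

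Values that turned sign, none of them past the threshold, were SPTLC2 (-0.0009) and CERS2 (-0.0204) in H1.2sh and ASAH1 in Cul4Ash (0.0437) without normalization; UGCG (-0.14) and SGMS1 (-0.14) in H1.2sh and ASAH1 in PAF1sh (-0.17) with neqc; and ASAH1 in Cul4Ash (0.0482) and PAF1sh (-0.0909) and SPHK1 in PAF1sh (-0.0924) on the 5 arrays. CPTP was at -0.0297 with median scaling and -0.0510 without normalization in H1.2sh, and at 0.199 with neqc and 0.0901 on the 5 arrays in PAF1sh. Without 1 array, ranges that crossed 0 were -0.16 to 0.16 for ASAH1 in Cul4Ash and -0.15 to 0.17 in PAF1sh, -0.20 to 0.0876 for SPTLC1 in PAF1sh, -0.12 to 0.18 for SGMS1 in Cul4Ash and -0.25 to 0.12 in PAF1sh, -0.0157 to 0.18 for SPTLC2 in H1.2sh and -0.0159 to 0.18 in Cul4Ash, -0.0925 to 0.13 for SPHK1 in PAF1sh, and -0.0568 to 0.16 in H1.2sh and -0.12 to 0.10 in PAF1sh for CPTP.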
